A study of Mus musculus with 6 samples.

Results

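The 30 genes described here make or handle sterols and fatty acids in the cell, and were picked by gene symbol from the 28945 genes of the table. The RNA came from splenic CD4+ T cells of mice. The labels give the genotype of 3 libraries as CONT and of 3 as DM, and the design text names C57BL/6J and db/db mice; CONT was read as C57BL/6J and DM, for diabetes mellitus, as db/db, a pairing that no label spells out. Mice of the db/db line lack a working leptin receptor and develop obesity and diabetes. The tissue, spleen, and the cell type were the same in both groups, and neither age, sex nor any treatment is given in the labels for either of them. Eldecalcitol, a vitamin D analogue, stands in the title of the series, but none of the 6 libraries is labelled with it, so the comparison made was DM against CONT. Whether the libraries of a group are different animals is not stated in the labels, and p-values therefore measure only the spread between libraries, which may be technical.

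Cholesterol is built from acetyl-CoA by way of mevalonate, farnesyl pyrophosphate and squalene, and fatty acids are built from the same acetyl-CoA by the carboxylase Acaca and the synthase Fasn. Sterol regulatory element-binding proteins (SREBPs) turn on both sets of enzymes when membrane sterol is low, and Insig1 holds them in the endoplasmic reticulum when it is high. Liver X receptors (LXRs) sense oxidised sterols and raise the efflux transporters Abca1 and Abcg1. In T cells this programme is known to rise after antigen receptor stimulation, when membranes are made for division.

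None of the 30 genes differed between DM and CONT at a Benjamini-Hochberg adjusted p below 0.05 (limma on log2(FPKM + 1)); the smallest adjusted p was 0.336, for Fasn (limma). Of the 13106 genes tested, 1.52% were called, 1.27% higher and 0.252% lower in DM. Before adjustment, 0 of the 30 genes had a p below 0.05, beside 16% of all genes tested (limma). The fold change lay above 0 in 14 genes and below 0 in 16, and their median was -0.02 on the log2 scale, against -0.01 over all genes tested. The 95% confidence interval of the fold change stayed between -1 and 1 on the log2 scale, that is within a doubling or a halving, in 24 of the 30 genes. Over all genes tested that share was 52.4%. Each of these 30 small fold changes moved by over 1.5 times when some library was left out. This held for 23 without CONT replicate 1, 16 without DM replicate 1 and 15 without CONT replicate 3. With 3 libraries per group a fold change near 0 moves by that factor easily, and the share over all genes was not computed. The added 1 FPKM makes folds of low genes come out too small, and the intervals are not adjusted for the number of genes.

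All 30 genes reached the tested level, a group mean of 1 FPKM or more in either group, but Scd1 passed only through DM replicate 3. Levels differed widely between the genes, on the FPKM scale, which is per transcript length. The ATP citrate lyase Acly and the elongase Elovl5 were the most abundant, at 40.6 ± 7.03 and 42.8 ± 2.33 FPKM in CONT (mean ± SD, n = 3). The lanosterol synthase Lss and the 3-ketosteroid reductase Hsd17b7 stood near 1 to 2 FPKM in most libraries.

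**Figure D1:**
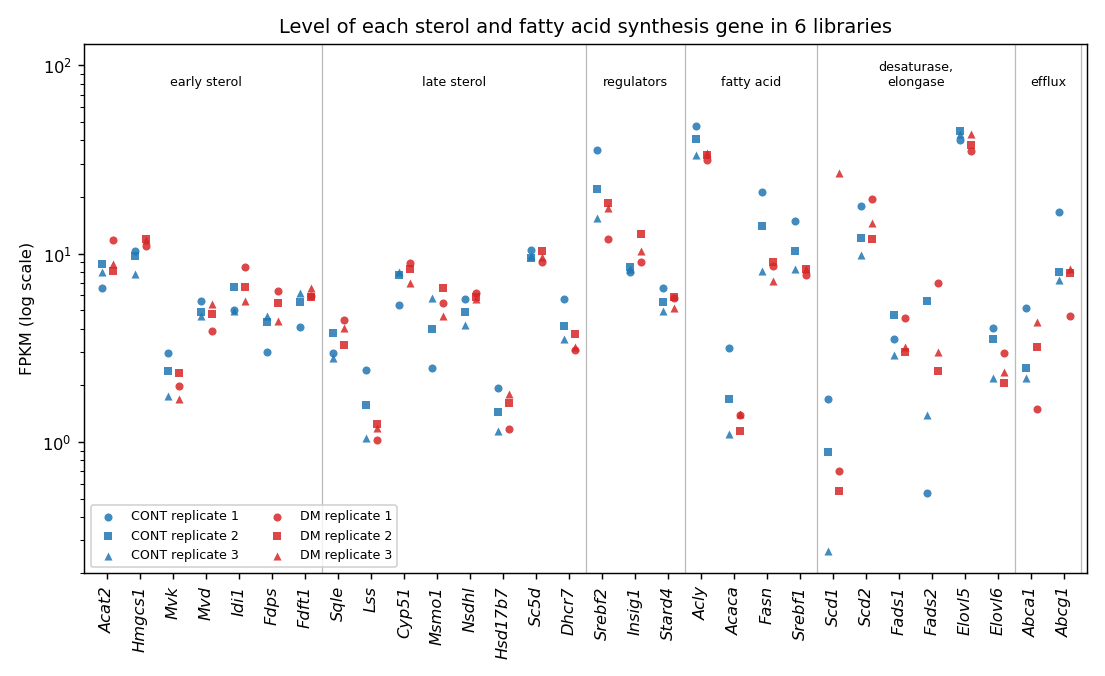
FPKM of each of the 30 genes on a log scale, with CONT libraries in blue and DM libraries in red and a marker shape for each replicate number; genes are ordered by role. CONT and DM points overlap in 27 of the 30 genes, and Scd1 in DM replicate 3, at 26.8 FPKM, lies far above the other libraries.

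Promoters are shown for Hmgcs1, Insig1, Fasn and Srebf2, which were among the 6 genes with the smallest adjusted p; their windows come from RefSeq (GRCm38.p6) and are shown because SREBPs act on promoters. Of the other 2 genes, Srebf1 has 3 windows, which are not printed, and Fdps is named only. Each window runs from 250 bases before to 50 bases after the RefSeq start, 5′ to 3′ on the gene's own strand. For Hmgcs1, Insig1 and Srebf2 that start differs from the start in the gene coordinates printed further on. Capitals mark matches on either strand to the core of the sterol regulatory element (TCACNCCAC), the CCAAT box bound by NF-Y, and the palindromic E-box CACGTG. The windows are chr13:119690101-119690400 (plus strand) for Hmgcs1, chr5:28071162-28071461 (plus strand) for Insig1, chr11:120824498-120824797 (minus strand) for Fasn and chr15:82147019-82147318 (plus strand) for Srebf2.
Hmgcs1: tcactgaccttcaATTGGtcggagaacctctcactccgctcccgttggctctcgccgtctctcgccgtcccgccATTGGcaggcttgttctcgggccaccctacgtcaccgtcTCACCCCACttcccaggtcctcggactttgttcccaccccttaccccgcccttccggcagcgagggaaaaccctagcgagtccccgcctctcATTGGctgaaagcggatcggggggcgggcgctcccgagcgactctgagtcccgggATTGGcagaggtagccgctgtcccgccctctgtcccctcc
Insig1: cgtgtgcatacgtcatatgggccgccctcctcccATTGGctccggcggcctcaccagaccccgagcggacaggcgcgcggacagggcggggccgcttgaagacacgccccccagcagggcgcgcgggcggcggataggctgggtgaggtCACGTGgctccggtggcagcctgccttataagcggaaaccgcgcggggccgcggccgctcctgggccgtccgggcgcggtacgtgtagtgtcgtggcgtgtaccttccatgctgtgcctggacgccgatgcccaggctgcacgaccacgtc
Fasn: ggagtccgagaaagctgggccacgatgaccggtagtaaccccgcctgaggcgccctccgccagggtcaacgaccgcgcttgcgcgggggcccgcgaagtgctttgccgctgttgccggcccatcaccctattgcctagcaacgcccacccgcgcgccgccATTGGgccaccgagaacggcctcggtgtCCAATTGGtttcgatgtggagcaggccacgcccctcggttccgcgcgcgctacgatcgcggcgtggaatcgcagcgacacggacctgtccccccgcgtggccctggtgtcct
Srebf2: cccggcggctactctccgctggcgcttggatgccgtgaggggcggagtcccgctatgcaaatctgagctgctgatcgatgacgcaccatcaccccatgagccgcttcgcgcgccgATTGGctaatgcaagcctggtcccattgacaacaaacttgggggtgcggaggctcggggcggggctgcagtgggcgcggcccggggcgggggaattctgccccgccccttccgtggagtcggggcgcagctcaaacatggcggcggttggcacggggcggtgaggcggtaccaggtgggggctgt
The Hmgcs1 window held the sterol regulatory element core, starting 137 bases before the RefSeq start, and 4 CCAAT boxes. The Insig1 window held the E-box and 1 CCAAT box, and the Fasn window held 3 CCAAT boxes, of which 2 overlap as a run of 8 capitals. The Srebf2 window held 1 CCAAT box.

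RefSeq gave 26 windows for 22 of the 30 genes, as Srebf1 and Dhcr7 have 3 each. A CCAAT box was found in 18 of the 26 windows (69.2%), and in 37.4% of the 32851 promoter windows of all genes. The E-box was found in 6 of the 26 windows (23.1%), and in 7.15% of all windows. The element core was found in 1 of the 26 windows, that of Hmgcs1, and in 1.24% of all windows. A match describes letters in the window and does not show that a factor binds there. Only exact matches inside these windows were sought, so a window without a match does not show that the gene lacks such an element.

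The early steps from acetyl-CoA to squalene are carried by Acat2, Hmgcs1, Mvk, Mvd, Idi1, Fdps and Fdft1, and none of the 7 was called. Their median log2 fold change was 0.26, with 5 above 0, of which Acat2, Hmgcs1, Idi1 and Fdft1 turned below 0 when libraries were scaled to the same total, and the confidence interval of each stayed within a doubling or halving. The median was 0.16 without CONT replicate 1 and 0.13 without DM replicate 1. Hmgcs1 (chromosome 13, 119690379 to 119708260, GRCm38), the synthase that makes HMG-CoA, was at 10.3, 9.68 and 7.83 FPKM in CONT against 10.9, 12 and 11.8 FPKM in DM. Its 3 DM libraries all lay above its CONT libraries; the log2 fold change, 0.30 ± 0.17 SE, had an interval from -0.11 to 0.71 (limma adjusted p = 0.379). Groups were apart in either direction in 3 of the 30 genes (10%) and in 27.1% of all genes tested, 13.8% with DM higher and 13.2% with DM lower; the 3 were Hmgcs1, Nsdhl and Insig1, each with DM higher.

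Fdps, which makes farnesyl pyrophosphate, was at 3.01, 4.35 and 4.64 FPKM in CONT against 6.36, 5.46 and 4.40 FPKM in DM. CONT replicate 1 was its lowest library and DM replicate 1 its highest, and the groups overlapped (difference on the log2 scale 0.36 ± 0.22 SE; limma adjusted p = 0.383). Idi1, the isopentenyl diphosphate isomerase, had 5.01, 6.67 and 4.98 FPKM in CONT against 8.46, 6.64 and 5.62 FPKM in DM. Only its DM replicate 1 stood above every CONT library. The cytosolic thiolase Acat2 was at 6.54, 8.80 and 8.02 FPKM in CONT against 11.8, 8.12 and 8.86 FPKM in DM. Its DM replicate 1 was well above CONT, DM replicate 3 just above the highest CONT library, and DM replicate 2 within the CONT range. The kinase Mvk and the decarboxylase Mvd, which act between mevalonate and isopentenyl diphosphate, had log2 fold changes of -0.16 and -0.10. Fdft1, the squalene synthase, averaged 5.27 ± 1.09 FPKM in CONT against 6.13 ± 0.353 FPKM in DM (SD, n = 3).

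The later steps from squalene to cholesterol are carried by Sqle, Lss, Cyp51, Msmo1, Nsdhl, Hsd17b7, Sc5d and Dhcr7, and none of the 8 was called. Their median log2 fold change was 0.10, with 5 above 0, of which Sqle, Cyp51, Nsdhl and Hsd17b7 turned below 0 under the same scaling; the median was 0.050 without CONT replicate 3. The widest difference upward was in Msmo1, a C4-methylsterol oxidase, at 2.48, 3.99 and 5.79 FPKM in CONT against 5.44, 6.56 and 4.64 FPKM in DM. CONT replicate 3 lay within the DM range, and the interval of its log2 fold change of 0.41 ran from -0.24 to 1.05. Without CONT replicate 1 the fold change of Msmo1 was 0.16, and without CONT replicate 3 it was 0.64. The widest difference downward was in Dhcr7, the last reductase of the pathway, at 5.73, 4.14 and 3.51 FPKM in CONT against 3.08, 3.72 and 3.21 FPKM in DM (difference on the log2 scale -0.31 ± 0.21 SE; limma adjusted p = 0.411). Without CONT replicate 1 the value for Dhcr7 was -0.15.

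Nsdhl, a sterol dehydrogenase on chromosome X, was at 5.72, 4.89 and 4.18 FPKM in CONT against 6.21, 5.92 and 5.77 FPKM in DM. Its DM libraries were close together and all above CONT, by 0.24 ± 0.18 on the log2 scale (SE; limma adjusted p = 0.446). Sc5d, the sterol desaturase that acts before Dhcr7, was the steadiest of the 30 genes: its highest library was 1.16 times its lowest, and it averaged 9.91 ± 0.493 FPKM in CONT against 9.67 ± 0.685 FPKM in DM (SD, n = 3). Squalene epoxidase Sqle averaged 3.19 ± 0.547 and 3.91 ± 0.607 FPKM, and the lanosterol demethylase Cyp51 7.02 ± 1.44 and 8.09 ± 1.01 FPKM, in CONT and DM (SD, n = 3). Lss averaged 1.68 ± 0.693 and 1.15 ± 0.117 FPKM and Hsd17b7 1.51 ± 0.400 and 1.53 ± 0.321 FPKM.

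Summed over the 15 sterol synthesis enzymes, the level was 74.6, 79.4 and 74.3 FPKM in CONT against 88.8, 86.2 and 81.5 FPKM in DM. The DM sums were all above the CONT sums on the FPKM scale. As a share of all FPKM of the library the same genes took 0.0301%, 0.0243% and 0.0201% in CONT and 0.0216%, 0.0217% and 0.0212% in DM. On that scale CONT replicates 1 and 2 were above DM and CONT replicate 3 below, so the order of the groups depended on the scale. All FPKM of a library summed to less in each CONT library than in each DM library.

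**Figure D2:**
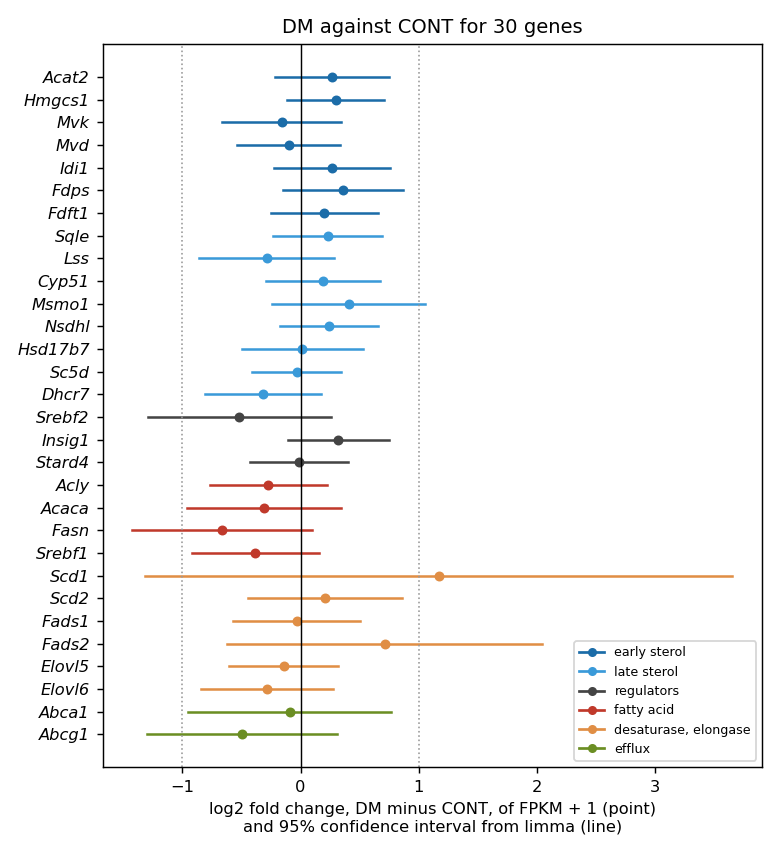
Log2 fold change of DM minus CONT on log2(FPKM + 1) for each gene (point) with its 95% confidence interval from limma (line), coloured by role; dotted lines mark -1 and 1. The interval of every gene includes 0, and Scd1, from -1.31 to 3.65, has the widest.

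Among regulators, Insig1 lay above 0 and Srebf2 below, neither was called, and Insig1 was at -0.0030 with libraries scaled to the same total. Insig1 (chromosome 5, 28071363 to 28078662, GRCm38) is itself a target of SREBPs, and stood at 8.02, 8.52 and 8.32 FPKM in CONT against 8.99, 12.8 and 10.3 FPKM in DM. The CONT libraries were nearly equal and every DM library was above them, by 0.32 ± 0.18 on the log2 scale (SE; limma adjusted p = 0.374; interval -0.11 to 0.75). Srebf2 (chromosome 15, 82147181 to 82205379), which encodes the SREBP that mainly drives sterol synthesis, was at 35.5, 22 and 15.4 FPKM in CONT against 11.9, 18.6 and 17.5 FPKM in DM. CONT replicate 1 alone was far above the other libraries. The log2 fold change of Srebf2 was -0.52 ± 0.33 (SE; limma adjusted p = 0.397), without CONT replicate 1 it was -0.21, and without DM replicate 1 it was -0.33. The sterol carrier Stard4 averaged 5.69 ± 0.828 FPKM in CONT against 5.60 ± 0.383 FPKM in DM (SD, n = 3).

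The fatty acid synthesis genes Acly, Acaca, Fasn and Srebf1 each had a fold change below 0, with a median of -0.35, and none was called. The median was -0.16 without CONT replicate 1 and -0.55 without CONT replicate 3. Fasn (chromosome 11, 120805846 to 120824547, GRCm38) was at 21.3, 14.1 and 8.14 FPKM in CONT against 8.56, 8.98 and 7.18 FPKM in DM. CONT replicates 1 and 2 were above every DM library, while CONT replicate 3 lay within the DM range. Its log2 fold change was -0.66 ± 0.32 (SE; limma adjusted p = 0.336), and it was -0.35 without CONT replicate 1 and -0.997 without CONT replicate 3 (limma adjusted p = 0.549 and 0.149). In the authors' deposited table Fasn had a p of 0.0377 and a q of 0.294 and was not flagged.

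Acly, which cuts citrate to supply cytosolic acetyl-CoA, was at 47.5, 40.9 and 33.5 FPKM in CONT against 31.5, 33.6 and 34.3 FPKM in DM. Only CONT replicates 1 and 2 were above DM. Acaca, the acetyl-CoA carboxylase, had 3.14, 1.69 and 1.10 FPKM in CONT against 1.38, 1.15 and 1.4 FPKM in DM, with CONT replicate 1 alone well above the rest. Its log2 fold change was -0.31, and -0.04 without that library. Srebf1, which encodes the SREBPs that mainly drive fatty acid genes, was at 14.9, 10.3 and 8.24 FPKM in CONT against 7.67, 8.34 and 8.25 FPKM in DM (log2 fold change -0.38, and -0.17 without CONT replicate 1). In all 4 genes CONT replicate 1 was the highest library.

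Desaturases and elongases showed no common direction, with 3 above 0 and 3 below, and none was called. Scd1 and Scd2 encode similar stearoyl-CoA desaturases, which make monounsaturated fatty acids, and lie close together on chromosome 19 (44394455 to 44407879 and 44293674 to 44306864, GRCm38). Scd1 was at 1.70, 0.889 and 0.263 FPKM in CONT against 0.704, 0.549 and 26.8 FPKM in DM. DM replicate 3 was the only library with a level above 2 FPKM, and the log2 fold change, 1.17 ± 1.06 SE with a limma adjusted p of 0.518, rests on it. Without that library Scd1 fell below the level tested. The authors' deposited table gave Scd1 a p of 0.0326, a q of 0.273 and a fold of 9.83 and flagged it as significant; it was the only flagged gene of the 30, beside 11% of the genes in that table. Fasn and Scd1 were the 2 of the 30 genes with a p below 0.05 in the authors' deposited table, beside 14.6% of its genes. How reads shared by the Scd genes were counted is not stated. Scd2 was at 18, 12.1 and 9.80 FPKM in CONT against 19.5, 11.9 and 14.6 FPKM in DM.

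DM replicate 3 also had the highest summed level of B cell, plasma cell, macrophage, neutrophil, dendritic cell, erythroid and natural killer cell markers, while basophil and dividing cell markers were highest in DM replicate 1. The summed level of 8 B cell markers was 308 FPKM in DM replicate 3, against 14.9 and 11.3 FPKM in DM replicates 1 and 2 and 5.21 to 22.5 FPKM in CONT, and each of the 8 had its highest DM level in that library. Cd79a, a signalling chain of the B cell receptor, was at 94.7 FPKM there and at 0.694 to 4.92 FPKM in the other libraries. The 12 macrophage and monocyte markers summed to 1038 FPKM there, to 418 and 270 FPKM in the other DM libraries and to 21.1 to 85 FPKM in CONT. The part of these cells in the level of Scd1 was not tested. In such bulk samples more cells of a type and more RNA per cell cannot be told apart. Fat cell genes were looked for after the values of Scd1 were seen, and only 4 of those sought had values. Of the 4, Fabp4, which macrophages also express, was highest in DM replicate 3, at 0.596 FPKM against 0.0123 to 0.0926 FPKM in the other libraries. Plin1 and Cfd were at 0 in 5 libraries each, with Cfd at 0.0392 FPKM in DM replicate 3, and Adipoq was at 0.0744 to 0.241 FPKM. The part of fat cells in the level of Scd1 was not tested.

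**Figure D3:**
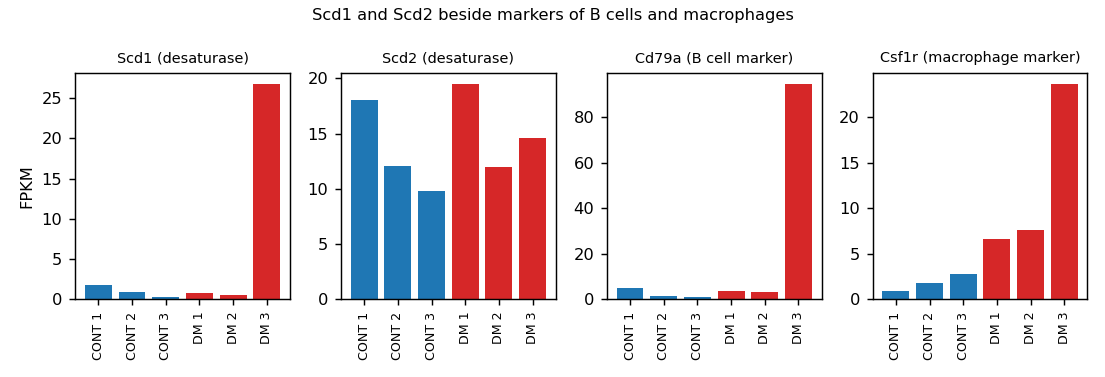
FPKM (bars) of Scd1, Scd2, the B cell marker Cd79a and the macrophage marker Csf1r in each library, CONT in blue and DM in red; each panel has its own axis from 0. Scd1 and Cd79a are high in DM replicate 3 alone, at 26.8 and 94.7 FPKM, whereas Scd2 spans 9.80 to 19.5 FPKM without such a peak.

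The desaturases Fads1 and Fads2, close together on chromosome 19, which act on polyunsaturated fatty acids, differed in their spread. Fads2 was at 0.538, 5.63 and 1.4 FPKM in CONT against 6.96, 2.37 and 3.01 FPKM in DM, a 12.9-fold span over the 6 libraries. CONT replicate 2 and DM replicate 1 were the high libraries and the groups overlapped (difference on the log2 scale 0.71 ± 0.57 SE; limma adjusted p = 0.472). Without CONT replicate 2 the log2 difference in Fads2 was 1.31 (limma adjusted p = 0.327), without CONT replicate 1 it was 0.25, and without DM replicate 1 it was 0.34. The same libraries were the highest of their groups for a list of 8 markers of dividing cells, which summed to 61.5, 140 and 67.8 FPKM in CONT and to 400, 109 and 193 FPKM in DM; the part of dividing cells in the level of Fads2 was not tested. Fads1 averaged 3.71 ± 0.924 and 3.60 ± 0.853 FPKM in CONT and in DM (SD, n = 3). Elovl5, which lengthens polyunsaturated chains, was at 40.2, 44.8 and 43.4 FPKM in CONT against 35.2, 38 and 43.2 FPKM in DM, and Elovl6, which lengthens saturated chains, averaged 3.25 ± 0.962 and 2.45 ± 0.467 FPKM.

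The efflux transporters Abca1 and Abcg1, both LXR targets, were not called. Abca1 was at 5.14, 2.47 and 2.18 FPKM in CONT against 1.5, 3.21 and 4.32 FPKM in DM, so that CONT replicate 1 and DM replicate 3 were high and DM replicate 1 low. Abcg1 was at 16.6, 8.01 and 7.29 FPKM in CONT against 4.66, 7.92 and 8.32 FPKM in DM. In both genes CONT replicate 1 was the highest and DM replicate 1 the lowest library, and the other 4 libraries of Abcg1 lay close together. Their log2 fold changes were -0.09 ± 0.36 and -0.49 ± 0.34 (SE), without CONT replicate 1 they were 0.20 and -0.15, and without DM replicate 1 they were 0.21 and -0.26.

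Much of the spread among the 30 genes lay within CONT. CONT replicate 1 was the highest of the 6 libraries in 15 of the 30 genes (50%; 40.1% of all genes tested) and the lowest in 7 (23.3%; 32.5% of all genes tested). DM replicate 1 was the highest in 8 (26.7%; 24.2% of all genes tested) and the lowest in 10 (33.3%; 25.2% of all genes tested). CONT replicate 3 was the lowest in 10 (33.3%; 17.8% of all genes tested) and the highest in 0 (7.94% of all genes tested). CONT replicate 1 also had the lowest mean correlation with its own group, 0.878 on log2(FPKM + 1), where the other libraries had 0.915 to 0.949, and its share of FPKM from ribosomal protein genes was 6.05%, where the others had 11.9% to 16.2%. The 7 genes lowest there were Acat2, Fdps, Fdft1, Cyp51, Msmo1, Insig1 and Fads2, of which 5 are sterol synthesis enzymes.

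**Figure D4:**
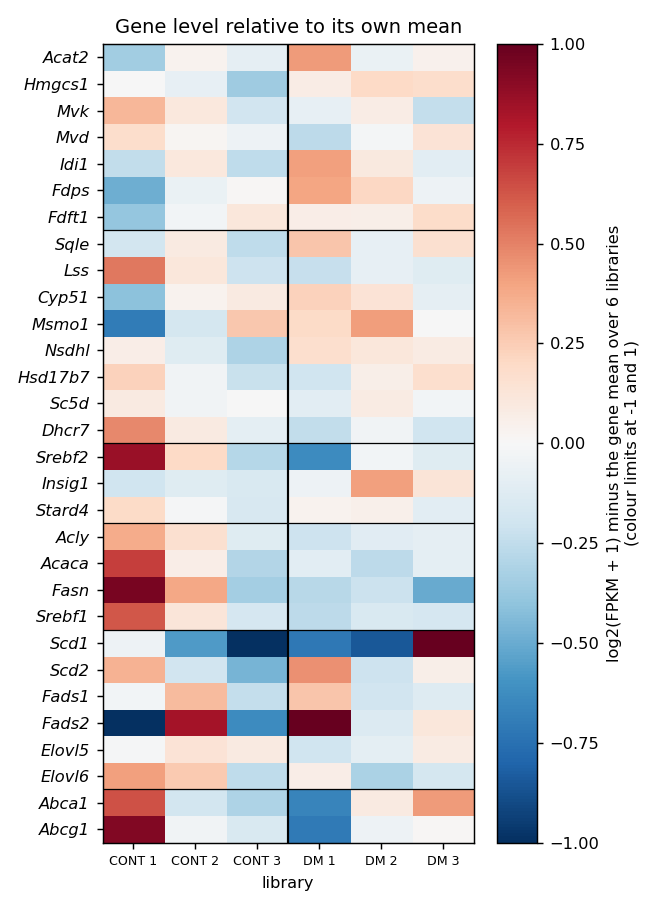
Level of each gene (rows, by role) in each library (columns) as log2(FPKM + 1) minus the gene's mean over 6 libraries, with colours limited at -1 and 1. CONT replicate 1 is red for Srebf2, Fasn, Srebf1, Acaca, Abca1 and Abcg1 and blue for Fdps, Fdft1, Cyp51, Msmo1 and Fads2.

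The offset of CONT replicate 1 from the other CONT libraries followed transcript length. Over the 30 genes the Spearman correlation of the longest annotated transcript with that offset was 0.64, and over 13096 genes tested with an annotated length it was 0.46; these are descriptions across genes of the same libraries, which are not independent. By length, the median offset ran from -0.55 on the log2 scale in the shortest of 5 equal groups of genes to 0.58 in the longest. The median fold change of DM against CONT ran the other way, from 0.30 to -0.29. CONT replicate 1 enters the offset with a plus sign and the fold change with a minus sign, so an opposite run is partly built in. None of the 30 genes was in the shortest group and 11 were in the longest, where Fasn (10050 bases), Abca1 (10262 bases), Acaca (9513 bases) and Srebf2 (5077 bases) lie. Sterol synthesis enzymes had a median longest transcript of 3027 bases and the other 15 members of 5077 bases, with median fold changes of 0.20 and -0.14. The part of transcript length in these differences was not tested.

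**Figure D5:**
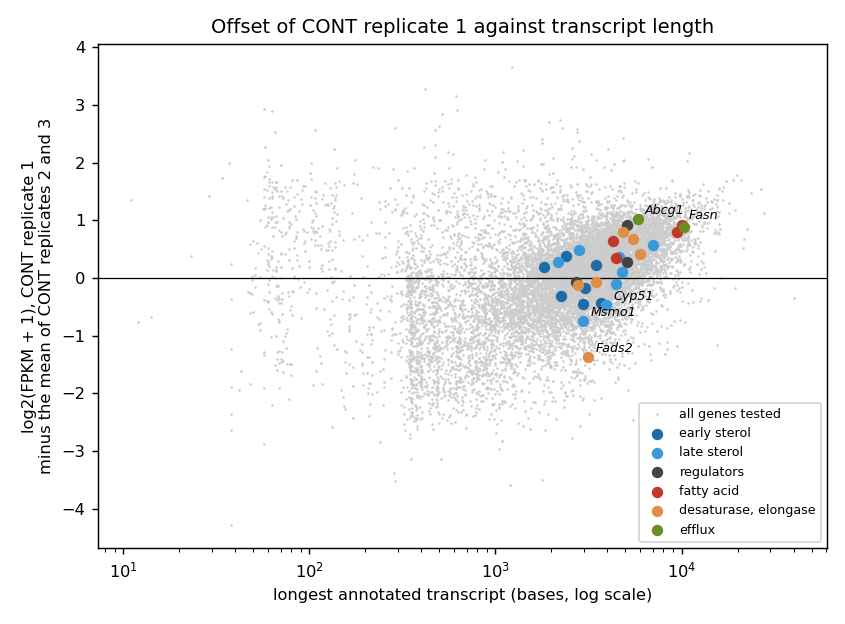
Longest annotated transcript in bases (log scale) against the level of CONT replicate 1 minus the mean of CONT replicates 2 and 3, on log2(FPKM + 1); grey points are all genes tested and coloured points the 30 genes by role. Among the labelled genes Fasn and Abcg1 lie above 0, and Fads2, Msmo1 and Cyp51, at 3150, 2969 and 3931 bases, lie below. Of shorter members, Mvd, Nsdhl and Mvk, at 1833, 2168 and 2380 bases, lie above 0, and Acat2, at 2250 bases, lies below.

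The cells carried T cell RNA in both groups. The summed level of 12 CD4 T cell markers was 2140, 1814 and 2069 FPKM in CONT against 1095, 1616 and 1303 FPKM in DM. The sum was lower in every DM library, and none of the 12 genes was called. The mean was lower in DM for 11 of the 12 and higher for Cd3g, and in 9 every DM library lay below CONT. Over the 13106 genes tested, 6713 had a log2 fold change below 0, and in 13.2% every DM library lay below CONT. Cd4 was one of the 9, at 149 to 220 FPKM in CONT against 82.4 to 134 FPKM in DM, while Cd3g, at 89.8 to 233 FPKM in CONT against 150.4 to 216 FPKM in DM, and Cd3d overlapped. The part of these T cell marker levels in the values above was not tested.

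Further genes of the same pathways came from 6 lists of 100 genes, of which 97 were in the table and 78 were tested. None of the 78 was called over all genes tested, beside 1.52% of all genes. Before adjustment 9 (7 higher and 2 lower), or 11.5%, had a p below 0.05, beside 16% of all genes (limma). The groups did not overlap in 22 of the 78 (28.2%; 27.1% of all genes tested), 11 with DM higher and 11 with DM lower. Of the 78, 7 reached the tested level through DM alone, so that they had to be higher there, and 1 through CONT alone. The 4 genes of each list with the smallest adjusted p are described next. The median log2 fold change in other sterol synthesis genes was 0.11 over 11 genes, SREBP control genes -0.18 over 8, the isoprenoid branch -0.07 over 13, further fatty acid synthesis and elongation genes 0.30 over 18, sterol uptake, transport and storage genes -0.13 over 17, and LXR receptors and targets 0.02 over 11.

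In the SREBP control list Scap, the escort of SREBPs, was at 12.7, 9.50 and 6.32 FPKM in CONT against 5.74, 6.32 and 6.78 FPKM in DM (log2 fold change -0.48; limma adjusted p = 0.348). CONT replicates 1 and 2 were above every DM library and CONT replicate 3 lay within the DM range. Rnf145, a sterol-responsive ubiquitin ligase, was at 28.5, 20 and 17.7 FPKM in CONT against 13.4, 15.8 and 17.9 FPKM in DM, and the site-1 protease Mbtps1 at 18.4, 11.1 and 8.47 FPKM in CONT against 7.78, 9.24 and 9.70 FPKM in DM. Both overlapped (log2 fold changes -0.45 and -0.40; limma adjusted p = 0.350 and 0.425). The site-2 protease Mbtps2, which frees SREBPs, had 4.74, 2.94 and 2.75 FPKM in CONT against 2.45, 2.58 and 2.66 FPKM in DM, with every DM library below CONT (log2 fold change -0.30; limma adjusted p = 0.440).

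Among sterol synthesis genes outside the 30, the phosphomevalonate kinase Pmvk was at 4.38, 4.75 and 3.68 FPKM in CONT against 6.31, 4.87 and 7.11 FPKM in DM. Every DM library was above CONT (log2 fold change 0.42; limma adjusted p = 0.328). Por, the reductase that passes electrons to Cyp51 and Sqle, was at 12.4, 12.6 and 9.76 FPKM in CONT against 7.02, 9.53 and 8.15 FPKM in DM, with every DM library below CONT (log2 fold change -0.45; limma adjusted p = 0.312). Acat1, the mitochondrial thiolase, was at 9.30, 21.8 and 25.8 FPKM in CONT against 34.6, 30.2 and 23.4 FPKM in DM, and Erg28, a scaffold of sterol demethylation, at 4.58, 6.35 and 7.35 FPKM in CONT against 9.03, 7 and 7.92 FPKM in DM. Both overlapped, with CONT replicate 1 the lowest library (log2 fold changes 0.70 and 0.35; limma adjusted p = 0.356 and 0.383).

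In the isoprenoid branch Ggps1, which makes geranylgeranyl pyrophosphate, was at 16.6, 16.1 and 15.3 FPKM in CONT against 10.8, 14.2 and 10.7 FPKM in DM, again with no overlap (log2 fold change -0.41; limma adjusted p = 0.319). Fnta and Fntb encode the subunits of the farnesyltransferase. Fnta was at 9.36, 12.6 and 13.3 FPKM in CONT against 20.2, 13.9 and 13.6 FPKM in DM, just without overlap (log2 fold change 0.40; limma adjusted p = 0.376), and Fntb, which overlapped, had a log2 fold change of -0.45. Rabggta, a subunit of the enzyme that prenylates Rab proteins, was at 7.59 to 10.4 FPKM in CONT against 5.97 to 7.50 FPKM in DM, also just without overlap (log2 fold change -0.30; limma adjusted p = 0.398).

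Among further fatty acid genes, the dehydratase-family gene Hacd4 was at 0.140 to 0.336 FPKM in CONT against 0.933 to 1.81 FPKM in DM, with no overlap (difference on the log2 scale 0.95 ± 0.24 SE; limma adjusted p = 0.130). Hacd4 was tested only because of its level in DM. The fatty acid binding protein gene Fabp5 was at 0.685, 2.78 and 2.26 FPKM in CONT against 7.34, 3.85 and 4.04 FPKM in DM (log2 fold change 1.10; limma adjusted p = 0.236). The mitochondrial malonyl transferase Mcat was at 3.81, 4.41 and 5.25 FPKM in CONT against 8.89, 6.19 and 6.32 FPKM in DM (log2 fold change 0.56; limma adjusted p = 0.275). In Fabp5 and Mcat too every DM library was above CONT. Mid1ip1, a regulator of acetyl-CoA carboxylase, overlapped, at 4.13, 5.37 and 3.56 FPKM in CONT against 8.88, 5.2 and 7.16 FPKM in DM (log2 fold change 0.58; limma adjusted p = 0.303).

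In the sterol transport list Gramd1a, which carries plasma membrane cholesterol to the endoplasmic reticulum, was the gene with the smallest adjusted p: 91, 103 and 88 FPKM in CONT against 46.8, 67.7 and 48.9 FPKM in DM. Every DM library was below CONT (difference on the log2 scale -0.79 ± 0.24 SE; limma adjusted p = 0.203). The scavenger receptor Cd36 was at 0.344 to 0.539 FPKM in CONT against 1.12, 0.694 and 6.14 FPKM in DM, highest in DM replicate 3, and was tested only because of its level in DM. The lysosomal lipase Lipa was at 11 to 13.7 FPKM in CONT against 7.13 to 11 FPKM in DM, just without overlap (log2 fold change -0.44; limma adjusted p = 0.330). The lipoprotein receptor Scarb1 overlapped, at 0.834 to 2.05 FPKM in CONT against 1.58 to 3.59 FPKM in DM (log2 fold change 0.60; limma adjusted p = 0.337).

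In the LXR list the sterol 27-hydroxylase Cyp27a1 had the smallest adjusted p, at 0.227 to 0.306 FPKM in CONT against 2.40, 2.08 and 7.03 FPKM in DM (difference on the log2 scale 1.78 ± 0.37 SE; limma adjusted p = 0.0772). Cd5l, a macrophage protein that is also in the macrophage marker list, was at 0.252 to 0.595 FPKM in CONT against 1.75, 2 and 11.1 FPKM in DM (limma adjusted p = 0.219). Cyp27a1 and Cd5l were tested only because of their level in DM, so their p and their lack of overlap are conditional on being high there. Both had their highest level in DM replicate 3, where macrophage markers were highest, and the part of those cells was not tested. Apoe, a lipoprotein component that macrophages make, was at 4.76, 20.2 and 53.1 FPKM in CONT against 51.6, 73.4 and 105 FPKM in DM, with overlap and also highest in DM replicate 3 (log2 fold change 1.99; limma adjusted p = 0.285). The corepressor Ncor1 was at 55.6, 33.5 and 25.1 FPKM in CONT against 18.2, 23.2 and 20.9 FPKM in DM, all DM libraries below CONT (difference on the log2 scale -0.77 ± 0.31 SE; limma adjusted p = 0.296).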

How the data were processed

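RNA from CD4+ T cells was measured in 3 CONT and 3 DM libraries. The authors deposited expression as FPKM, fragments per transcript length and library depth; the unit is read from the values, which are not whole and sum differently in each library. Per the submitters' processing notes, cutadapt 1.9, FastQC and the build GRCm38 were used; which aligner and quantifier followed, and how strand and shared reads were treated, are matters not given in the sources used here. Beside FPKM the authors deposited for each gene a p-value, a q-value, a ratio (fold change) and its log2. Their test is not named, and these values are printed as theirs. Read depth is unknown: of low FPKM times length in genes with 1 transcript, 16.8% to 19.9% lay within 0.02 of a whole step, so no counting interval is given.

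The test was limma 3.58.1 (R 4.3.3) on log2(FPKM + 1), using a trended and robust prior variance without covariates, and Benjamini-Hochberg adjustment over 13106 genes whose mean reached 1 FPKM in either group. The test was checked on simulated data. Each mean ± SD is over the 3 libraries of a group. The members and lists were chosen with earlier results of these data known, so no test over a list was made. Named are all 30 members, the 4 genes per further list with the smallest adjusted p, and at most 4 genes per marker list by level; Csf1r, Cd3d, Fabp4, Plin1, Cfd and Adipoq were chosen after the values were seen. Identifiers of 28864 genes (99.7%) matched GENCODE M21, which gave coordinates (1-based) and lengths; promoters are from RefSeq. Alternatives were other scalings, pseudocounts, filters, variance priors, library weights, a replicate block and leaving out each library; leaving out CONT replicate 1 and DM replicate 3 together was chosen after seeing the data. A marker gene of the B cell list is not reported here and is left out of its sum. Matplotlib 3.10.9 drew the figures.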

Additional observations from a re-analysis of the deposited data

How the results depend on the processing

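No member was called, higher or lower, under any alternative run, and the smallest adjusted p of a member ran from 0.117 to 0.634 over them (limma). With total scaling, which moved the median of all genes to -0.33, the log2 fold change turned below 0 for Acat2 (-0.058), Hmgcs1 (-0.029), Idi1 (-0.046), Fdft1 (-0.11), Sqle (-0.055), Cyp51 (-0.13), Nsdhl (-0.070), Hsd17b7 (-0.28), Insig1 (-0.0030), Scd2 (-0.13); each of these lay above that median. The sign also turned with median-of-ratios scaling for Stard4 (0.011), with upper quartile scaling for Hsd17b7 (-0.015), with quantile normalization for Hsd17b7 (-0.084), with library quality weights for Stard4 (0.026), Fads2 (-0.064), Abca1 (0.025), and without both CONT replicate 1 and DM replicate 3 for Mvk (0.042), Sc5d (0.0070), Stard4 (0.13), Fads1 (0.0022). With 1 library left out at a time the log2 fold change spanned 0 in 6 members: Abca1 -0.33 to 0.21, Fads1 -0.18 to 0.12, Hsd17b7 -0.092 to 0.13, Mvd -0.19 to 0.0061, Sc5d -0.082 to 0.010, Stard4 -0.098 to 0.078. Without CONT replicate 3, 4 members had an unadjusted p below 0.05 (limma), beside 26.4% of all genes.

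Over all genes, 166 were called higher and 33 lower. These were 23 and 5 with no filter on low values, and 613 and 258 with library quality weights; 19 were lower with a filter of 5 FPKM. Leaving out a library gave 22 to 179 higher and 2 to 28 lower, the lowest counts without DM replicate 1. The cause was not tested. With a replicate block 185 were higher and 19 lower, and no member's call changed; the labels do not pair the libraries, and deviations of same-numbered libraries from their group means correlated at -0.361, -0.382 and -0.203. Read depth is unknown, so what it limits cannot be given.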

Other observations

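The ratio of the SREBP target Insig1 to Srebf2 within a library, a quantity that no scaling of whole libraries changes, was 0.226, 0.388 and 0.539 in CONT against 0.753, 0.685 and 0.591 in DM. That of Hmgcs1 to Srebf2 was 0.290, 0.441 and 0.508 in CONT against 0.915, 0.643 and 0.675 in DM. Both ratios were picked after the values were seen, and every DM library was above every CONT library in both. Insig1 and Hmgcs1 already had every DM library above CONT by themselves, as did 13.8% of all genes tested. Both ratios also share Srebf2 as divisor, so they are not independent of each other or of those values. How often ratios of other genes keep the groups apart was not computed. The longest annotated transcripts of Insig1, Hmgcs1 and Srebf2 have 2697, 3464 and 5077 bases, so each ratio sets a shorter against a longer transcript, and CONT replicate 1, where long transcripts were higher, had the lowest value in both.

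The ratio of Fasn to Acly was 0.449, 0.345 and 0.243 in CONT against 0.272, 0.267 and 0.210 in DM, with overlap. The ratio of Scd1 to Scd2 was 1.84 in DM replicate 3 and 0.0268 to 0.0942 in the other libraries.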
